A study of Caenorhabditis elegans with 2 samples.

Results

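Distal intergenic summits are the points of highest enrichment that fall neither inside a gene nor near the start of one. They were taken from the list of peaks called on both replicates pooled, by position alone. A summit was kept if it lay on an autosome, in no annotated gene span, and in no promoter window. Promoter windows covered the 1000 bp before and the 500 bp after the 5′ end of every transcript, and genes of piRNAs, the small germline RNAs that silence transposons, were ignored. This left 3522 summits of the 24753 autosomal peaks, and of the 30000 peaks in all. The sequence in which such a summit could lie, called eligible below, came to 13.7 Mb, or 16.6% of the autosomes.

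The nematode genome is compact, and most genes lie close to their neighbours, so that the far side of one gene is often the upstream region of the next. The autosomes of this worm have arms, which recombine often and are rich in repeats and in young gene families, and centres, which recombine little and hold many conserved genes with essential roles. Nuclear hormone receptors are transcription factors with a zinc finger DNA-binding domain, many of them controlled by small lipid-like ligands, and the family is greatly expanded in Caenorhabditis elegans. Several of its members are known to bind repeats or single copies of the hexamer AGGTCA.

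The experiment was chromatin immunoprecipitation and sequencing (ChIP-seq) of a tagged nuclear hormone receptor in whole L3 larvae. Both samples, biological replicates 1 and 2 of 1 group, were of strain OP353, with the allele unc-119(tm4063) on chromosome III and the integrated transgene wgIs353 carrying eGFP-tagged nhr-77. Animals of both sexes were pooled, and the library size range was 150 to 350 bp. The antibody is labelled nhr-77 only, and the promoter that drives the transgene is not given in the sources used here. There is no second group, so no test between groups was made. Whole larvae mix all tissues, and a peak present in few cells cannot be told apart from a weak peak in many.

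Both replicates and the pool had a relaxed list of 30000 entries each, and a short list of 590 peaks had passed a threshold on the IDR (irreproducible discovery rate), which asks how alike peaks rank in replicates. These 590 were the highest entries of the pooled list by the authors' signal value, and the lowest of them had a signal of 28.9. The files do not name this value, which by the layout of the lists is the enrichment of ChIP over control. Signal has its own scale in each list, so replicates are compared below by rank, where 1 is the highest. Read depth is unknown here, and all intervals below are exact Clopper-Pearson 95% intervals that cover counting error only. Where a count is 0, the share it allows is given by another rule, as 3 counts of the total, which is somewhat lower than the exact interval's upper bound.

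Of the 10 strongest distal intergenic summits, 8 are shown first, as most of them carry 1 or both of 2 features that recur in the results, a run of alternating G and A and a 9-base word that shares its last letters with such a run. The sequences are those of the RefSeq reference genome WBcel235 (ce11), forward strand, 50 bases on either side of the summit, each named by its order by pooled signal. Capitals mark GAGAGA, CTGCGTCTC and CACGTG on either strand (so also TCTCTC and GAGACGCAG).

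Summit 1, chrIV:2219577-2219677: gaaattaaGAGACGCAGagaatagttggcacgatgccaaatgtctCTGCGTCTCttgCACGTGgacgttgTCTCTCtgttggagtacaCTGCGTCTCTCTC
Summit 4, chrII:12102514-12102614: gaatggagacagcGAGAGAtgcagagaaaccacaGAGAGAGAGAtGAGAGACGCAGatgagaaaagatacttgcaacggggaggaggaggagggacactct
Summit 5, chrV:8671736-8671836: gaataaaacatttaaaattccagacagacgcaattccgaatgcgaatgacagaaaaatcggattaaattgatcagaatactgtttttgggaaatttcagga
Summit 6, chrIII:7155854-7155954: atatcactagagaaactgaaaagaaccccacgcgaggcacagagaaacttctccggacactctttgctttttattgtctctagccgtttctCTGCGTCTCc
Summit 7, chrIII:3801515-3801615: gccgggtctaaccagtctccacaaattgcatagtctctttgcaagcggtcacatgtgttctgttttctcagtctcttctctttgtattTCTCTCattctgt
Summit 8, chrIII:13061252-13061352: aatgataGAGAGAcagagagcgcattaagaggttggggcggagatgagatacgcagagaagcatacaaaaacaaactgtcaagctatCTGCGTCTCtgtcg
Summit 9, chrII:5320321-5320421: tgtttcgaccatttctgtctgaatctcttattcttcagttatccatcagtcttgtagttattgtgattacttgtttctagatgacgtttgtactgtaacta
Summit 10, chrII:11635926-11636026: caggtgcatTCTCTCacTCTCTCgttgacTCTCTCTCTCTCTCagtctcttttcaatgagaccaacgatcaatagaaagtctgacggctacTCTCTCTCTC

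The sequences of summits 1, 4, 6 and 8 hold the 9-base word, and those of summits 1, 4, 7, 8 and 10 hold GAGAGA. Summits 5 and 9 hold neither in these bases. CACGTG, the E-box that basic helix-loop-helix factors bind, stands in summit 1 between 2 copies of the 9-base word.

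Distal intergenic summits reached the top of the list less often than promoter summits and more often than summits in gene bodies. Of the 3522, 49 (1.39%, interval 1.03 to 1.84%) were in the IDR list, against 1.92% of all autosomal peaks and 1.97% of all peaks. In promoter windows 389 of 11684 summits (3.33%, 3.01 to 3.67%) were in the IDR list. In gene bodies outside promoter windows the count was 37 of 9547 (0.388%, 0.273 to 0.534%). Distal intergenic summits of the X chromosome, chosen by the same rule, had 30 of 943 (3.18%, 2.16 to 4.51%). The intervals of these 4 classes do not overlap, apart from those of the promoter and X classes. No test was made of these or of the other differences between classes of summits below, which are descriptions.

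Below the top of the list the autosomal distal intergenic summits were an even part of the data. Only 1 of the 68 autosomal peaks of ranks 1 to 100 was one (1.47%, 0.0372 to 7.92%). Their share was 10.5% of ranks after 100 up to 300, 12.7% of those up to 590, and 13.3 to 15.4% in each lower bin. Promoter windows went from 95.6% of the first bin to 42.7% of the last, and gene bodies from 2.94% to 42.4%. The median signal of the distal intergenic summits was 8.17, with quartiles of 6.61 and 11, beside a median of 8.25 for all autosomal peaks. They ranged from 5.53 to 70.1, and 9.88% were among the 3000 highest of the pooled list.

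**Figure D1:**
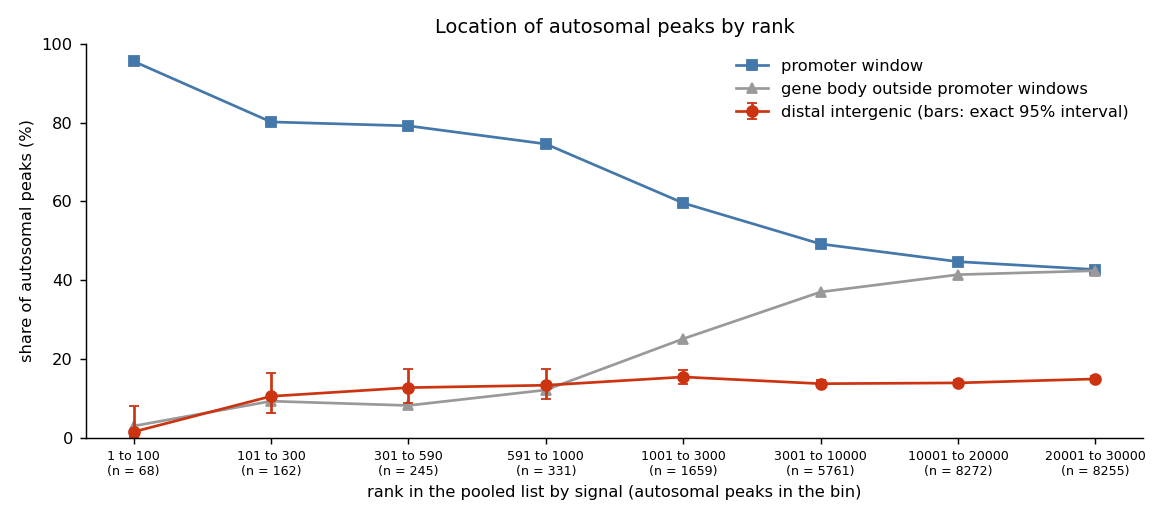
Share of autosomal peaks (vertical axis, %) in promoter windows, in gene bodies outside them and in distal intergenic sequence, by rank bin of the pooled list (horizontal axis, number of autosomal peaks below each bin). Vertical bars are exact 95% intervals for the distal intergenic share, which stays between 10.5 and 15.4% in every bin but the first.

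Each replicate list alone held a like number of distal intergenic summits, 3432 in replicate 1 and 3524 in replicate 2, and the share of pooled summits matched in each depended on the distance allowed. Within 100 bp, 41.9% of the pooled summits had a summit of replicate 1, 41% one of replicate 2, 12.8% one of both, and 30% one of neither. Over all autosomal peaks these shares were close, at 44.6, 40.5, 13.9 and 28.9%. Within 200 bp the shares of the distal intergenic summits were 52% in replicate 1, 51.9% in replicate 2 and 22% in both. In the other direction, 41.8% of the 3432 and 39.9% of the 3524 lay within 100 bp of a pooled distal intergenic summit. Within 100 bp of the 590 highest peaks of replicate 1 lay 47 of the pooled summits (1.33%, beside 1.84% of autosomal peaks), and near those of replicate 2 lay 53 (1.5%, beside 1.74%). A total of 18 summits were near the top peaks of both replicates (0.511%, beside 0.828% of autosomal peaks).

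Those in the IDR list were matched much more often. That list is the top of a pool of the same replicates. The match rate is therefore not independent of how these summits were chosen. Of the 49, 45 had a match in replicate 1, 45 in replicate 2, 42 in both and 1 in neither. Being in the list did not mean a high rank in each replicate. Only 18 of the 49 lay within 100 bp of the 590 highest peaks of both. The median rank of the matches was 435 in replicate 1 and 407 in replicate 2. Across the 451 summits matched in both replicates, signal had a Spearman's rho of 0.377, beside 0.486 across 2061 promoter summits, and both come from the same pair of libraries. Over the 42 IDR summits alone, which were selected by their pooled signal, rho was -0.072.

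Close to 1 in 2 of the strong summits lay just past the end of a gene. Of the 49 IDR summits, 24 (49%, 34.4 to 63.7%) were within 500 bp past a 3′ end, and in each case the gene was protein coding. The same stretch held 960 of all 3522 summits (27.3%, 25.8 to 28.8%) in 18.3% of the eligible sequence. The IDR share of these 960 was 2.5% (1.61 to 3.7%), an interval that includes the 1.92% of all autosomal peaks. In promoter windows the IDR share was 3.33%. By the rule no summit could lie within 1000 bp upstream of a 5′ end, so the 3′ side is the only one that can be approached this closely. Distances here are from the end of the annotated gene span.

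Density was highest in the first 500 bp past the 3′ end and showed no steady fall beyond it. Where a 3′ end was the nearest gene edge, there were 381.5 summits per Mb of eligible sequence up to 500 bp, 235.3 from 500 to 1000 bp, 236.6 from 1000 to 2000 bp and 200.8 beyond. IDR summits went from 9.54 per Mb up to 500 bp to 4.3, 1.66 and 2.23 in the bins beyond. Where a 5′ end was the nearest edge, the densities were 233 summits and 1.84 IDR summits per Mb. Counting only sequence whose 31-mers occur once in the genome, the 4 bins past the 3′ end held 419.3, 279.9, 289.1 and 248.1 summits per Mb.

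The higher density in the first 500 bp was seen in short and in long gaps. In gaps between genes of under 5 kb, density was 379.9 per Mb up to 500 bp past the 3′ end, 233.3 from 500 to 1000 bp and 250.2 beyond. In longer gaps the corresponding values were 393.5, 242.4 and 205 per Mb. It was clear where no 5′ end lay up to 1500 bp away. Density there was 410.7 per Mb up to 500 bp, 210.1 from 500 to 1000 bp and 207.4 beyond. Where a 5′ end lay up to 1500 bp away, the corresponding values were 353.8, 262.8 and 322.3 per Mb. Near a 5′ end the first 500 bp thus stood well above the next 500 bp, but only a little above the sequence beyond 1000 bp. Of the 24 IDR summits past a 3′ end, 23 lay in gaps of under 5 kb, as did 847 of all 960 summits there. A 5′ end lay up to 1500 bp from 16 of the 24 and from 458 of the 960.

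Peaks were also dense just inside the ends of genes. Around protein coding 3′ ends, outside promoter windows, the last 500 bp of genes held 353.1 peaks per Mb and the first 500 bp past them 413.6. The regions 500 to 1000 bp away held 270.1 on the gene side and 238.6 past the gene. IDR peaks stood at 3.71 per Mb in the last 500 bp of genes (17 peaks) and at 11 per Mb in the first 500 bp past them (24 peaks). The 100-bp step with the highest IDR density ran from 100 to 200 bp past the end, with 9 peaks and 18.3 per Mb.

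**Figure D2:**
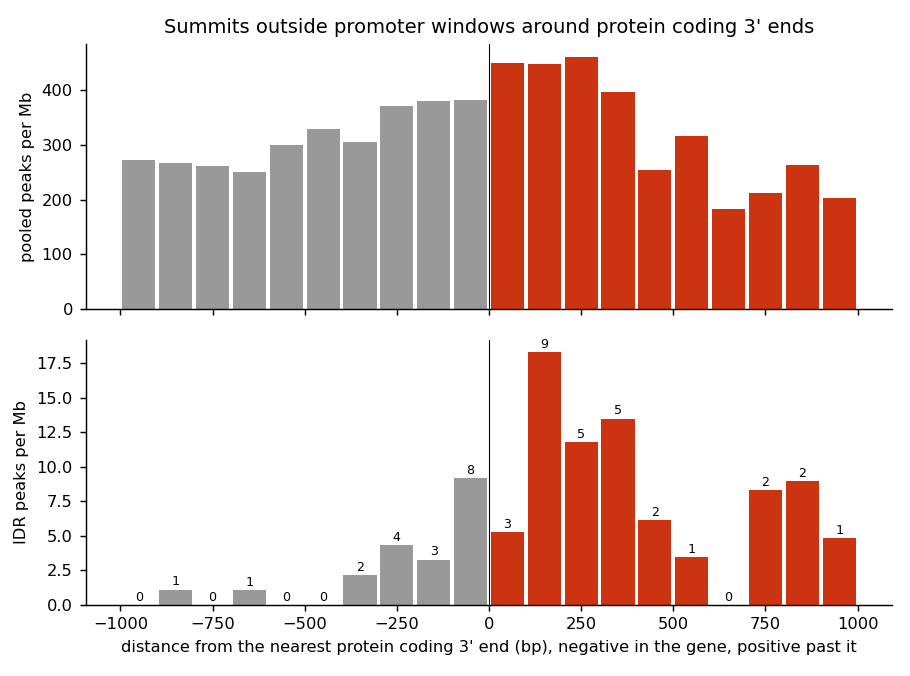
Density of pooled peaks (upper panel) and IDR peaks (lower panel, with their number over each bar) per Mb of sequence outside promoter windows, in steps of 100 bp from the nearest protein coding 3′ end. Grey bars lie in the gene and red bars past it, where the summits are distal intergenic. Both densities are highest within 500 bp past the end, and IDR density peaks at 18.3 per Mb.

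The share past a 3′ end was higher among strong summits below the IDR list too. It was 23.7% (21.4 to 26.2%) of the summits ranked after 20000, 29.8% of those after 3000 up to 10000 and 41.2% (35.1 to 47.5%) of those after 1000 up to 3000. Between the end of the IDR list and rank 1000 it was 25 of 44 (56.8%, 41 to 71.7%). Each replicate list on its own gave a like figure. Of the distal intergenic summits among its 590 highest peaks, 22 of 49 in replicate 1 (44.9%, 30.7 to 59.8%) and 28 of 54 in replicate 2 (51.9%, 37.8 to 65.7%) were past a 3′ end, against 25 and 25.2% of all distal intergenic summits of those lists.

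The genes' own promoters were also compared. Of the 24 genes, 18 (75%) had a pooled summit in their own promoter windows, as did the genes of 510 (58.6%) of the other 870 summits past a protein coding 3′ end. In 2 of the 24, eef-2 and F27C1.2, that summit was in the IDR list (8.33%, 1.03 to 27%), and for the other 870 in 40 (4.6%, 3.3 to 6.21%). The 24 genes had a median length of 1556.5 bp and the genes of the other 870 one of 2609 bp.

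Cuticle collagen genes were 4 of the 24. They were 0.858% of all genes that flank a distal intergenic summit and 0.636% of those that border a gap with eligible sequence. Their share among all genes with a summit past the 3′ end was not counted. Cuticle collagens are secreted proteins that build the worm's exoskeleton, which is remade at each moult. The summit past col-3 (gene WBGene00000594; peak on IV, 8826064 to 8826407) lay 223 bp beyond the 3′ end. Its pooled signal was 40.5, and neither replicate list held a summit within 100 bp. The summit past dpy-13 (WBGene00001074; IV, 4236786 to 4237129), a collagen gene whose loss makes short fat worms, lay at 248 bp with signals of 40.2 in the pool, 23.8 in replicate 1 and 18 in replicate 2. That past sqt-1 (WBGene00005016; II, 11336407 to 11336750), which helps shape the body, lay at 114 bp with signals of 37.5, 13 and 26. These pooled values are close together, while the summit at dpy-13 ranked 222 in replicate 1 and 420 in replicate 2, and that at sqt-1 ranked 1130 and 176. The fourth was col-17 (II, 4866179 to 4866522), at 85 bp and with signals of 31, 17.8 and 11.1. The own promoters of the 4 genes had highest signals of 12.8, 5.66, 20.5 and 7.41, all below the IDR list. Another collagen gene, dpy-5, faced the summit past F27C1.2 from the other side, at 725 bp.

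Other genes of the 24 are described singly, in no fixed list and with no share to compare. The summit at nuo-4 (III, 7155732 to 7156075), a gene of mitochondrial complex I, lay 122 bp past the 3′ end with signals of 46.9 in the pool, 21.6 in replicate 1 and 24.6 in replicate 2, and 2107 bp upstream of ogt-1, the O-GlcNAc transferase gene. That at vha-14 (III, 9509738 to 9510081), a subunit of the vacuolar proton pump, lay at 153 bp with signals of 42, 12 and 30.8, and 1560 bp upstream of F55H2.5. That at eef-2 (I, 9166900 to 9167243), translation elongation factor 2, lay at 120 bp with signals of 38.3, 26.6 and 14.1, and 1360 bp upstream of the pyruvate kinase gene pyk-1. The replicate ranks were close at nuo-4 (278 and 203) and far apart at vha-14 (1408 and 119) and eef-2 (155 and 823). Weaker ones lay past mdh-2, a malate dehydrogenase gene (33.8 in the pool), asp-1, an aspartyl protease gene (32.9), fkb-1, a prolyl isomerase gene (32.9), and the ribosomal protein gene rpl-9 (29.8). The summit at his-9 (33.2) stood between 2 histone H3 genes that carry the same symbol in the annotation (WBGene00001883 and WBGene00001899).

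The summit past nlp-40 (I, 16841 to 17184), a neuropeptide gene needed for the defecation rhythm, lay at 176 bp with signals of 51.2 in the pool, 25.5 in replicate 1 and 21.6 in replicate 2. It lay 471 bp past the end of the other neighbour, the CoREST-type corepressor gene rcor-1. The summit past xbp-1 (III, 4195351 to 4195694), a regulator of the unfolded protein response, lay at 165 bp with signals of 37.3, 18.6 and 22.1, and 1762 bp upstream of the splicing factor gene asd-1. That at hlh-30 (IV, 4014599 to 4014942), the gene of the worm's TFEB-type regulator of autophagy, lay only 22 bp past the end, and 536 bp past that of the lectin gene clec-78. Its signals were 37.2, 17.4 and 22.2, and the nearest 5′ end, 3560 bp away, was that of hlh-30. All 3 were matched within 100 bp in both replicates.

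The remaining summits past a 3′ end among the 25 strongest were these. That past F40E3.3 (I, 2639678 to 2640021) had signals of 54.3, 28.9 and 26.5 and was the only IDR summit in mostly repeated sequence, with 59.6% of the 31-mers around it found elsewhere. The nearest 5′ end was that of F40E3.3 itself, 1201 bp away, and mage-1 lay beyond. That past ZC190.4 (V, 8671614 to 8671957) sat in a gap of 283 bp between the 3′ ends of ZC190.4 and ZC190.5, with signals of 47.2 in the pool and 26.2 in replicate 1 and no match in replicate 2. The summit between xbx-5 and mtm-3 (III, 3801393 to 3801736), the latter a myotubularin phosphatase gene, had signals of 46.7, 36.5 and 9.83, and ranked 70 in replicate 1 and 2298 in replicate 2. It lay 1098 bp upstream of mtm-3, close to the edge of that gene's promoter window. That past nep-17 (II, 13516553 to 13516896), a neprilysin-type peptidase gene, had signals of 43, 22.5 and 17.4 and lay 1175 bp upstream of the chemoreceptor gene sre-45. The last, past F53F1.4 (V, 13411677 to 13412020), had signals of 35.5, 23.1 and 16.9, and the cuticlin gene cut-2 began 3100 bp beyond it.

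**Figure D3:**
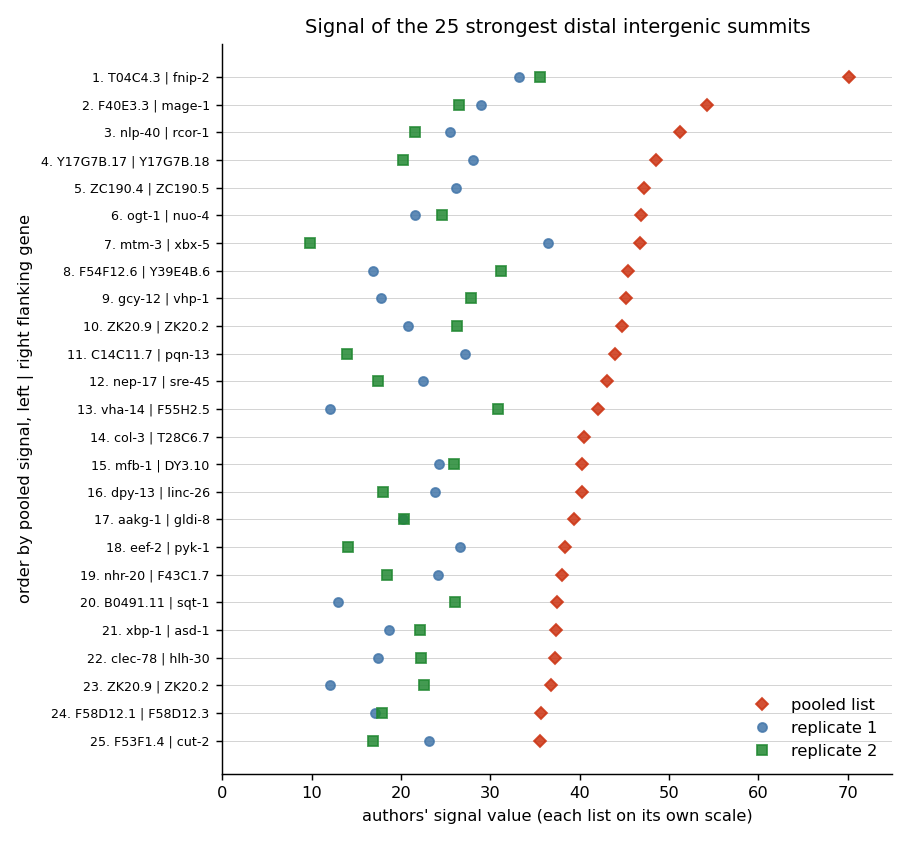
The authors' signal (horizontal axis) of the 25 strongest distal intergenic summits in the pooled list, replicate 1 and replicate 2, ordered by pooled signal and named by their flanking genes. A missing symbol means no summit within 100 bp in that list, which is so for both replicates at summit 14 (col-3). Each list has its own scale, and pooled signals run from 35.5 to 70.1 and replicate values from 9.83 to 36.5.

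The other 25 IDR summits were, by this split and the rule, more than 500 bp from any gene end. Their median gap was 5033 bp, against 1470.5 bp for those past a 3′ end. The shortest gaps hold no such position, so the difference follows in part from the split. The strongest distal intergenic summit of all was one of these 25 (IV, 2219455 to 2219798, rank 66). It had signals of 70.1 in the pool, 33.2 in replicate 1 and 35.6 in replicate 2, ranks of 81 and 86 in the replicates, and stood between the divergent genes T04C4.3, 2771 bp away, and fnip-2, a folliculin-interacting protein gene 3201 bp away. The next of this kind (II, 12102392 to 12102735) lay 2575 bp upstream of Y17G7B.17 and 767 bp past Y17G7B.18, with signals of 48.5, 28.1 and 20.2. It ranked 134 in replicate 1 and 321 in replicate 2.

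Long stretches without a coding gene held several of these. The summit of III, 13061130 to 13061473 (signals 45.4, 16.9 and 31.2) lay in a gap of 12269 bp between the ncRNA gene F54F12.6 and Y39E4B.6, and a second IDR summit, of 31.4, lay in the same gap. The nearest 5′ end was that of F54F12.6, 2924 bp away. Another (III, 12583532 to 12583875, signals 39.4, 20.2 and 20.3) was 8303 bp upstream of aakg-1, a gene of an AMP-activated kinase subunit, in the longest gap with an IDR summit, 20592 bp, that ends at gldi-8. It was the only IDR summit more than 5000 bp from any 5′ end. The second longest gap with one, 15085 bp between Y37D8A.4 and Y37D8A.5, held an IDR summit of 31.2.

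Other strong summits of chromosomes II and III were these. A summit on II (5320199 to 5320542; signals 45.2, 17.8 and 27.8) stood 2905 bp upstream of vhp-1, a MAP kinase phosphatase gene, and 754 bp past the receptor guanylyl cyclase gene gcy-12. A pair on II (11635804 to 11636147 with 44.7, 20.8 and 26.3, and 11637376 to 11637719 with 36.8, 12.1 and 22.6) shared the gap between the snoRNA gene ZK20.9 and the pseudogene ZK20.2. The nearest coding 5′ end to both, 2367 and 3939 bp away, was that of din-1, whose product is a corepressor of the nuclear hormone receptor DAF-12. On III (4237682 to 4238025), a summit with signals of 38, 24.1 and 18.4 lay 4635 bp upstream of nhr-20, itself a nuclear hormone receptor gene, with F43C1.7 on the other side. In all of these the summit was matched in both replicates.

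The last 3 of the 25 were on chromosomes I and V. The summit 1521 bp upstream of mfb-1 (I, 8786764 to 8787107), an F-box protein gene of the atrogin type, had signals of 40.3, 24.2 and 25.9, and the ncRNA gene DY3.10 flanked it on the other side. On V, a summit 1440 bp upstream of C14C11.7 and 2078 bp past pqn-13 (5667354 to 5667697) had signals of 43.9, 27.2 and 13.9. The other on V (14055171 to 14055279), between F58D12.1 and F58D12.3 and 1522 bp upstream of the pseudogene F58D12.2, had 35.7, 17.1 and 17.9. Its peak was narrower than those of the other 48 IDR summits, which all have 1 width.

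Among weaker IDR summits, that 1407 bp upstream of lin-41, a heterochronic gene that controls larval timing, had signals of 33.4 in the pool, 10.4 in replicate 1 and 21.8 in replicate 2. The gap between sup-26 and R10E4.3 on III held 2 IDR summits with overlapping peaks, 34.6 and 29.1. The first had no match in replicate 1 and the second none in replicate 2, so that each replicate held 1 of the pair. The ribosomal protein gene rpl-21 flanked an IDR summit of 29.7 from 4174 bp, and the helicase gene let-765 flanked the summit past mdh-2 from 5079 bp.

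Orientation of the neighbours in the 49 IDR summits differed from that in summits just below them as well as in the rest. Of all distal intergenic summits, 54.3% (52.7 to 56%) lay between genes in tandem, 23.9% (22.5 to 25.4%) between divergent genes and 21.7% (20.4 to 23.1%) between convergent genes, and eligible sequence was divided 51.9, 25.9 and 22.2%. Of the 49 IDR summits, 38 were in tandem gaps, 3 in divergent and 8 in convergent ones. The IDR share was thus 1.99% (1.41 to 2.72%) in tandem, 0.356% (0.0735 to 1.04%) in divergent and 1.05% (0.453 to 2.05%) in convergent gaps. Between the end of the IDR list and rank 1000, 47.7% were in tandem and 20.5% in divergent gaps, and from there to rank 3000, 52.2 and 20.8%. A divergent gap has no 3′ end at its edges, and all 8 IDR summits of convergent gaps were among those past a 3′ end.

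The summits lay somewhat nearer to 5′ ends than eligible positions did, with a median of 1931.5 bp (quartiles 1294.2 and 3060.2 bp) against 2093 bp. For IDR summits the median was 1521 bp. The IDR share fell with distance, from 1.89% (1.2 to 2.82%) up to 1500 bp to 1.42% from 1500 to 2500 bp, 1.08% from 2500 to 5000 bp and 0.312% (0.00791 to 1.73%) beyond. Density fell as well, from 296.2 summits per Mb in gaps of under 5 kb to 184.7 in gaps of over 20 kb, and IDR density from 5.63 to 1.47 per Mb. Values on either side of the rule's limits were as follows. Just outside the upstream limit, from 1000 bp inwards for 200 bp, 359 intergenic summits had a median signal of 8.22 and 5 were in the IDR list. Just inside, from there to 1200 bp, 323 had a median of 8.65 and 5 in the IDR list. At the downstream limit, the 102 summits in the 200 bp outside had a median of 8.08 and 1 in the IDR list. The 82 in the 200 bp inside had a median of 8.68 and 0 in the IDR list, which allows up to 3.66%.

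Arms and centres differed little in the number of distal intergenic summits. With arms as the outer 25% of each chromosome at either end, 1832 of 3522 (52%, 50.4 to 53.7%) were in arms, which held 52.9% of the eligible sequence. Density was 252.6 per Mb in arms and 261.5 in centres, a ratio of 0.966. By chromosome the ratio was 0.923 on I, 1.12 on II, 0.999 on III, 0.889 on IV and 0.961 on V. Counting only sequence with unique 31-mers, which leaves out 18.7% of the arms and 14.2% of the centres, the ratio was 0.999 over all autosomes, 1.29 on II and 0.841 on IV. Within chromosomes cut into 10 equal steps, the extremes were step 10 of II, with 478.9 per Mb, and step 9 of V, with 137.5 per Mb. Over all autosomes the steps ran from 225.1 to 275.5 per Mb.

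IDR summits were spread less evenly, on small counts. In arms 21 were in the IDR list (1.15%, 0.711 to 1.75%) and in centres 28 (1.66%, 1.1 to 2.39%), and these intervals overlap. On V, 1 of 8 IDR summits was in arms, on III 4 of 14 and on I 2 of 7. On II and IV the arms held more, 8 of 12 and 6 of 8. Of all autosomal IDR peaks 43.4% were in arms, beside 42.9% of the IDR summits. By chromosome the share of all IDR peaks was 43.5% on I, 56.7% on II, 41.4% on III, 50% on IV and 19.8% on V. Of the 24 IDR summits past a 3′ end 8 were in arms, and of the other 25, 13 were.

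**Figure D4:**
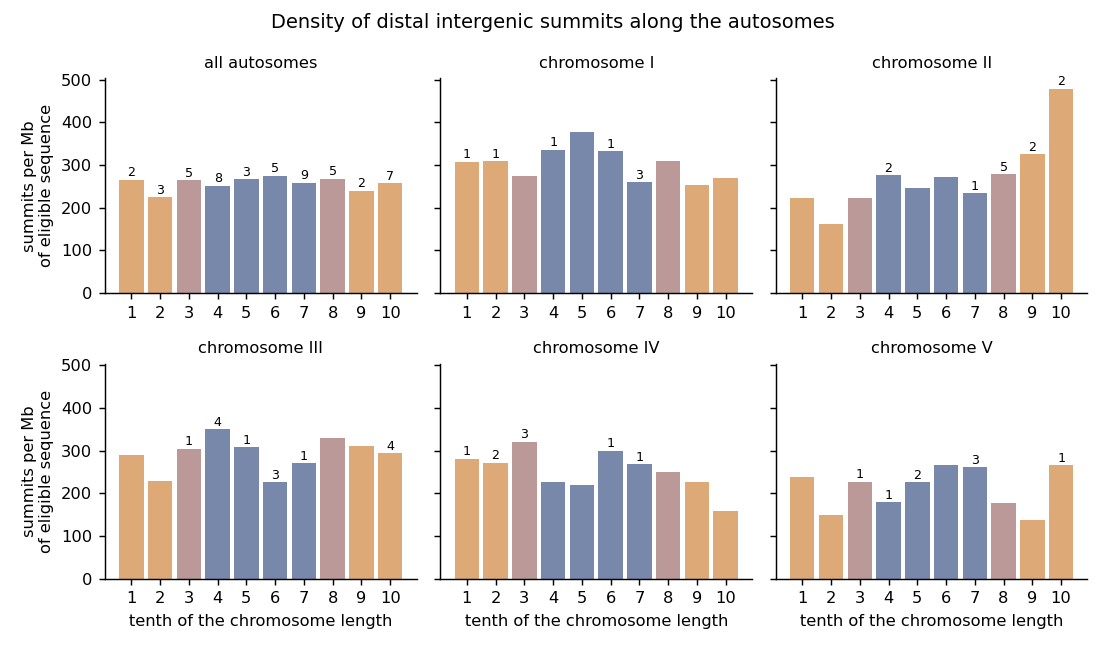
Distal intergenic summits per Mb of eligible sequence (vertical axis) in each of 10 equal steps of chromosome length (horizontal axis), for all autosomes and each one. Numbers over bars count IDR summits, and bars are coloured by arm (orange), border (mauve, steps 3 and 8, which the arm limit divides) and centre (blue). Over all autosomes the bars run from 225.1 to 275.5, and the highest single bar is step 10 of chromosome II.

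Chromosome IV held the most summits, 904, in the most eligible sequence, 3.82 Mb, and the fewest IDR summits per Mb, 2.1, against 6.55 on III. Its share of peaks that were distal intergenic was 18.3%, against 12.6 to 13.9% on the other autosomes. Chromosome IV also holds nearly all annotated piRNA genes, 14714. A piRNA 5′ end lay within 1000 bp of 401 of the 904, and of 1.78 of the 3.82 Mb of eligible sequence. Density there was 225.6 summits per Mb, against 246.8 in the rest of IV. In the IDR list were 0 of the 401, which allows up to 0.748%, and 8 of the other 503 (1.59%, 0.689 to 3.11%).

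The summits were spread over many gaps. There were 3307 separate places after merging overlapping peaks, and 47.5% of summits had another within 2 kb. They fell in 2178 of the 7552 gaps with eligible sequence (28.8%). The most in 1 gap was 12, between Y48G8AR.3 and dapk-1 on I, with signals from 5.55 to 17.2 and 1 summit matched in both replicates. Next came 10 between the ncRNA gene F44E8.44 and C31H1.2 on IV, all within 1000 bp of a piRNA 5′ end, with signals up to 12.4. Neither of these crowded gaps held an IDR summit. IDR summits lay in 46 gaps, of which 3 held 2.

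Families of flanking genes showed wide differences. Of the 12112 genes that border a gap with eligible sequence, 32.7% flanked a distal intergenic summit and 0.76% (92 genes) an IDR one. Chemoreceptor genes, a large family often found on arms, flanked a summit in 116 of 779 cases (14.9%), F-box and MATH or BATH genes in 30 of 204 (14.7%) and C-type lectin genes in 25 of 134 (18.7%). Neuropeptide and insulin genes did so in 47 of 90 (52.2%), lin and let genes, named for lineage and lethal mutants, in 25 of 43 (58.1%), and ligand-gated channel genes in 24 of 51 (47.1%). Longer gaps can hold more summits, and the part of gap length in these shares was not tested.

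Few of these genes flanked an IDR summit. Cuticle collagens did in 5 of 77 (6.49%), the 5 named above. Single cases were nhr-20 among 161 nuclear hormone receptor genes, sre-45 among 779 chemoreceptor genes, nlp-40 among 90 neuropeptide and insulin genes, clec-78 among 134 lectin genes and hlh-30 among 24 bHLH genes. Ribosomal protein genes had 2 of 28 (7.14%) and lin and let genes 2 of 43 (4.65%). Histone genes had 2 of 42 (4.76%), but both of these flank the same summit. The 61 homeobox genes had 0, which allows up to 4.92%, and the 51 ligand-gated channel genes had 0, which allows up to 5.88%. By biotype, protein coding genes were 79 of the 92 and ncRNA genes 8.

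The sequence of the IDR summits differed in composition from that of the rest. Within 100 bp of the summit, the median GC content was 33.8% over all distal intergenic summits, close to the 33.3% of all eligible windows of the same length, and 39.8% over the 49 in the IDR list. The IDR summits away from 3′ ends had a median of 45.3% and those past a 3′ end 36.1%. In promoter windows the median was also higher in the IDR list, at 41.8% against 35.8% over all promoter summits. Repeats were rare. Only 0.937% of summits lay in windows of mostly repeated 31-mers, against 16.9% of eligible windows. At the other autosomal peaks the share was 0.669%, so a low share is not particular to these summits. The eligible windows set beside the motif shares below include the repeated ones.

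GAGAGA, searched on both strands as were all motifs here, was most frequent at strong summits away from 3′ ends. It was present at 17 of the 25 IDR summits away from 3′ ends (68%, 46.5 to 85.1%) and at 5 of the 24 past a 3′ end (20.8%, 7.13 to 42.2%). Over all distal intergenic summits the share was 16.1% (14.9 to 17.3%), over promoter summits 16.2%, over promoter summits of the IDR list 29.3%, and over eligible windows 10.4%. In rank order it fell from 44.9% of the IDR summits to 31.8% of those from there to rank 1000 and 12.4% of those after 20000.

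The 9-base word CTGCGTCTC was added after the sequences of the strongest summits were seen. It was found at 12 of 49 IDR summits (24.5%, 13.3 to 38.9%), 9 of them away from 3′ ends. Among the 41 IDR summits whose sequences are not printed above there were 8 (19.5%, 8.82 to 34.9%). Over all distal intergenic summits it was at 100 (2.84%, 2.32 to 3.44%), over promoter summits at 3.08%, over promoter summits of the IDR list at 41 of 389 (10.5%, 7.67 to 14%), and over eligible windows at 1.13%. Of the 100 summits with the word, 12% (6.36 to 20%) were in the IDR list, and of the 3422 without it 1.08% (0.762 to 1.49%). In promoter windows these shares were 11.4 and 3.07%. The shares at distal intergenic summits include the strong summits in which the word was first seen, so they are not independent of its choice. The word and GAGAGA occurred together at 11 of the 12 IDR summits that held the word, and the 2 can overlap in a run such as CTGCGTCTCTCTC.

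**Figure D5:**
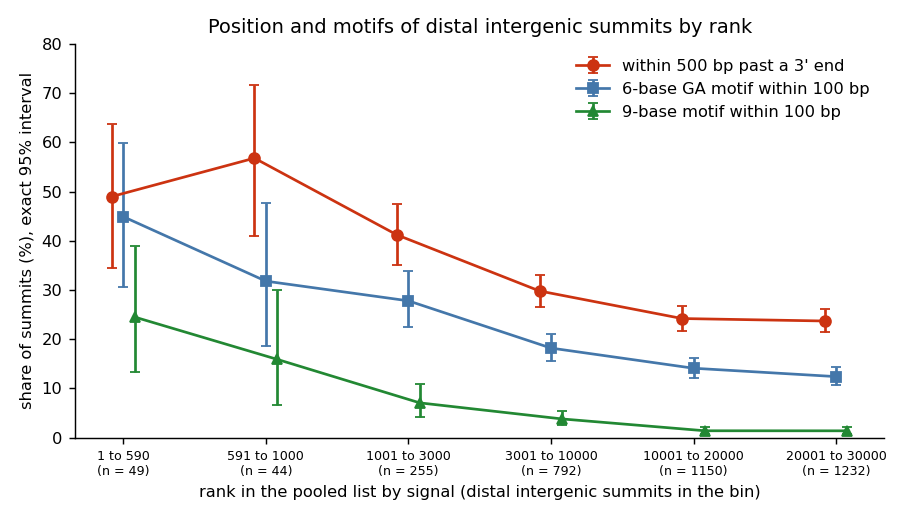
Share of distal intergenic summits (vertical axis, %, with exact 95% intervals) that lie within 500 bp past a 3′ end, hold the 6-base GA motif or hold the 9-base motif within 100 bp, by rank bin of the pooled list (horizontal axis, number of summits below each bin). All 3 shares are higher in the upper rank bins than in the lowest, where they are 23.7, 12.4 and 1.38%. The 9-base motif was taken from sequences of the strongest summits, so its share in the first bin is not independent of that choice.

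The nuclear receptor hexamer AGGTCA was about as frequent at these summits as in eligible sequence. It was present at 5.71% of them (4.96 to 6.52%) and in 5.46% of eligible windows. Among IDR summits it was at 5 of 49 (10.2%, 3.4 to 22.2%), an interval that includes the share of all windows. CAAAGTCCA, a word of the HNF4 type of receptor, was at 4 summits in all and at 0 of the 49. CACGTG was at 7 of 49 (14.3%, 5.94 to 27.2%), against 3.78% of all distal intergenic summits and 2.75% of windows. The GATA-type word TGATAA was at 9 of 49 (18.4%), against 17.4% and 16.7%, and TATAAA at 6 (12.2%), against 25 and 23.3%. TGACTCA, bound by bZIP factors, was at 1 of 49 against 1.94% of windows, and the tRNA promoter word GTTCGANNC also at 1, against 1.44%. GCGC was at 19 (38.8%, 25.2 to 53.8%) against 16% of windows, and TTTTTTTT at 11 (22.4%, 11.8 to 36.6%) against 27.1%. Promoter summits of the IDR list held GCGC at 62.2%, TATAAA at 15.9%, TTTTTTTT at 14.7% and CACGTG at 4.11%.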

How the data were processed

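The deposited files are peak lists of 2 biological replicates of 1 group. The signal of each peak is the authors' value; its reading as enrichment over control comes from the column layout, as the files have no headers. The sources used here give no aligner, peak caller or threshold on the IDR. Lists on ce10 were not used; those on ce11 were, with 1-based coordinates, and 0 columns of other samples were present. Genes came from Ensembl release 115 (WBcel235) and sequence from RefSeq of the same assembly.

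Members were found with Python 3.11.15, numpy 2.4.6 and scipy 1.17.1. Summits within 100 bp were called matched, and peaks overlapping by 1 bp were merged. The code was tested on simulated data. Named genes are those around the 25 strongest IDR members, the 2 fullest gaps, the 2 longest gaps with an IDR member, and up to 3 per gene list. Members past 3′ ends, col-17, dpy-5 and others outside that rule were named after their values were seen. Alternatives changed windows, gene sets, merging, arm limits, matching distance, list length, motif window and replicate. Members, lists and words were chosen with earlier results of these data known.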

Additional observations from a re-analysis of the deposited data

How the results depend on the processing

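The number of summits was 2158 with promoter windows of 2000 bp, and that in the IDR list 25, or 79 with protein coding genes alone. The 295 strongest IDR peaks, the 1000 and the 3000 highest peaks held 17, 93 and 348 members (0.483, 2.64 and 9.88%). The arm share was 54.9% with the 2000 bp window, 50.2% with the 500 bp window, 50.2% with piRNA genes, 50.3% with coding genes, 68.3 and 42.9% with arms as the outer 33.3 and 20%, and 49.9% without IV. The arm to centre density ratio was 1.02 with piRNA genes and 0.878 with coding genes. With either replicate list alone the ratio was 0.861 to 0.937, the arm share 49.2 to 51.2%, members 3432 to 3524, those in the top list 49 to 54 (1.43 to 1.53%), and the share past a 3′ end 25 to 25.2%, or in the top list 44.9 to 51.9%. GAGAGA was at 38.9 to 40.8% and CTGCGTCTC at 20.4 to 28.6% of top members. Matched within 50 and 200 bp were 32.7 and 52% in replicate 1, 27.6 and 51.9% in replicate 2, and 6.22 and 22% in both. Coding flanks gave 15.6% convergent, 29.2% divergent and a median of 2366 bp to a 5′ end. IDR members gave 16.3% convergent, 6.12% divergent, 77.6% tandem and 1521 bp. Within 300 and 1000 bp past a 3′ end lay 19.9 and 38.1%. Within 50 bp of summits, shares were AGGTCA 2.95%, TGATAA 9.23%, TGACTCA 0.767%, CACGTG 2.13%, GAGAGA 9.74%, TTTTTTTT 16.2%, TATAAA 12.4%, GTTCGANNC 0.88%, GCGC 11% and CTGCGTCTC 1.76%. Members numbered 4734 with the 500 bp window, 4778 with coding genes alone and 3099 with piRNA genes, within 1.5 times of 3522. In all, 46 of 93 values moved by less than the limits used, which were 1.5 times for counts, the exact interval for shares and 1 SD between the replicate lists for others. Alternatives on chromosome IV, unique sequence, 3′ ends and the 9-base word were chosen after seeing the data. No paired analysis was possible because there is 1 group. Without read counts, depth cannot be judged, and 2 replicates limit precision.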

Other observations

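Members near other strong peaks were few. An IDR peak that was no distal intergenic summit lay within 5000 bp of 5 of the 49 IDR members (10.2%, 3.4 to 22.2%) and of 145 of the 3473 others (4.18%, 3.53 to 4.89%). Within 10000 bp the counts were 10 (20.4%) and 352 (10.1%). The median distance to such a peak was 39509 bp for IDR members and 72978 bp for all members, and these intervals and medians are descriptions with no test.

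Small RNA genes bordered members to different extents. Of the snoRNA genes at a gap with eligible sequence 34 of 60 (56.7%) flanked a member, of the miRNA genes 28 of 55 (50.9%) and of the 1335 ncRNA genes 44.3%, against 32.7% of all such genes and 17.7% of pseudogenes. Of the tRNA genes 7 of 34 did (20.6%) and of the snRNA genes 2 of 10 (20%), and no difference was tested. None of the 55 miRNA genes flanked an IDR member, which allows up to 5.45%, and 1 of the 60 snoRNA genes did, ZK20.9. Outside chromosome IV, 47 members lay within 1000 bp of a piRNA 5′ end, and 2 of them were in the IDR list (4.26%, 0.52 to 14.5%).

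The first members below the IDR list were these. Member 50 (signals 28.3, 15.7 and 13.4 in the pool, replicate 1 and replicate 2) lay 1422 bp upstream of klf-1, a Krüppel-like factor gene. Member 51 (28.2 in the pool, 16.7 in replicate 2, none in replicate 1) lay 106 bp past the 3′ end of tdo-2, the tryptophan dioxygenase gene. Member 52 (27.6, 13.4 and 12.8) lay 505 bp past rfip-1, just outside the limit of 500 bp.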
